A study of Mus musculus with 6 samples.

Results

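The minichromosome maintenance (MCM) genes encode the DNA helicase that opens the double helix ahead of each replication fork, together with relatives that act beside it. The 8 genes *Mcm2*, *Mcm3*, *Mcm4*, *Mcm5*, *Mcm6*, *Mcm7*, *Mcm8* and *Mcm10* were taken by gene symbol from a table of 24972 symbols measured by RNA-Seq in isolated lung endothelial cells (iLECs) of newborn mice. All 8 were among the 14456 genes tested, which were those with 10 or more normalized counts in 3 or more libraries. There were 3 control libraries, labelled as *Atp6ap2* fl/Y without Cre, and 3 *Atp6ap2* iECKO libraries, labelled as *Atp6ap2* fl/Y with *Cdh5-CreERT2*, a tamoxifen-inducible Cre recombinase under the promoter of the endothelial gene *Cdh5*. *Atp6ap2* encodes the prorenin receptor (PRR), an accessory subunit of the vacuolar proton pump. Pups of both groups were given 100 μg tamoxifen at P1, P2 and P3, and lung cells were bound to anti-CD31 beads at P7. The labels give the strain as C57BL/6 for all 6 samples, whereas the methods of the study describe lines kept on a mix of CD1 and C57BL/6, and the floxed allele and tamoxifen were common to both groups. As the control group had no Cre, the presence of Cre and the loss of *Atp6ap2* cannot be told apart.

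MCM2 to MCM7 form a ring of unlike subunits that is loaded as an inactive pair onto replication origins in G1 by the origin recognition complex (ORC), CDC6 and CDT1. In S phase the ring is switched on by the kinase CDC7 with its partner DBF4 and by binding of CDC45 and the GINS complex, and MCM10 takes part in this activation. MCM8 works with MCM9 in repair by homologous recombination and is not a subunit of the loaded ring. Endothelial cells of the postnatal lung still proliferate while the capillary bed grows, so transcripts of these genes are read as part of the proliferation programme.

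The deposited values are called normalized counts here, since they had been scaled by the authors and are not whole numbers. Their totals were between 26359661 and 28725799 in control libraries and between 26243878 and 27221581 in *Atp6ap2* iECKO libraries. *Atp6ap2* itself was at 7490, 5815 and 5681 normalized counts in control libraries 1, 2 and 3 and at 4220, 2336 and 1982 in *Atp6ap2* iECKO libraries 1, 2 and 3, so the groups did not overlap and *Atp6ap2* iECKO library 1 kept the most. Of 20 endothelial markers, 0 were called higher and 1 lower, beside 3.28% and 4.97% of all genes tested. At an unadjusted limma *P* value below 0.05, 1 of these markers was higher and 2 were lower. By the genes that follow, 4 libraries went against the fl/Y label, which describes males. The study itself names fl/Y males and fl/fl females in both groups and states that neonates of both sexes were analysed. *Xist*, the X inactivation transcript of female cells, was at 37704 and 44402 in control libraries 1 and 2 and at 39442 and 47487 in *Atp6ap2* iECKO libraries 1 and 3, against 31.7 in control library 3 and 19.3 in *Atp6ap2* iECKO library 2. The Y-linked *Ddx3y* was at 4554 in control library 3 and 4656 in *Atp6ap2* iECKO library 2. It was at 11.3 in *Atp6ap2* iECKO library 3 and at 0 in control library 2 and *Atp6ap2* iECKO library 1. Control library 1 held 173 of *Ddx3y* beside its high *Xist*, and the source of this mixed signal was not tested. By *Xist*, each genotype held 2 libraries with a high and 1 with a low level.

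All 8 MCM transcripts were higher in each *Atp6ap2* iECKO library than in any control library, and 7 of the 8 rose significantly (adjusted *P* value below 0.05 in limma). Among all genes tested, 3.28% were called higher and 4.97% lower. Complete separation of the groups in the upward direction was seen in 14.7% of all genes tested, and in the downward direction in 15.0%. The ratio of the group means was between 1.71 for *Mcm6* and 2.39 for *Mcm10*, and the median log2 fold change of the 8 genes was 1.04, beside 0.005 over all genes tested. With 3 libraries against 3, an exact two-sided permutation test of a single gene cannot give less than 0.1, which was the value for each of the 8. In bulk RNA, a larger share of cycling cells and more MCM RNA per cell cannot be told apart.

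**Figure D1:**
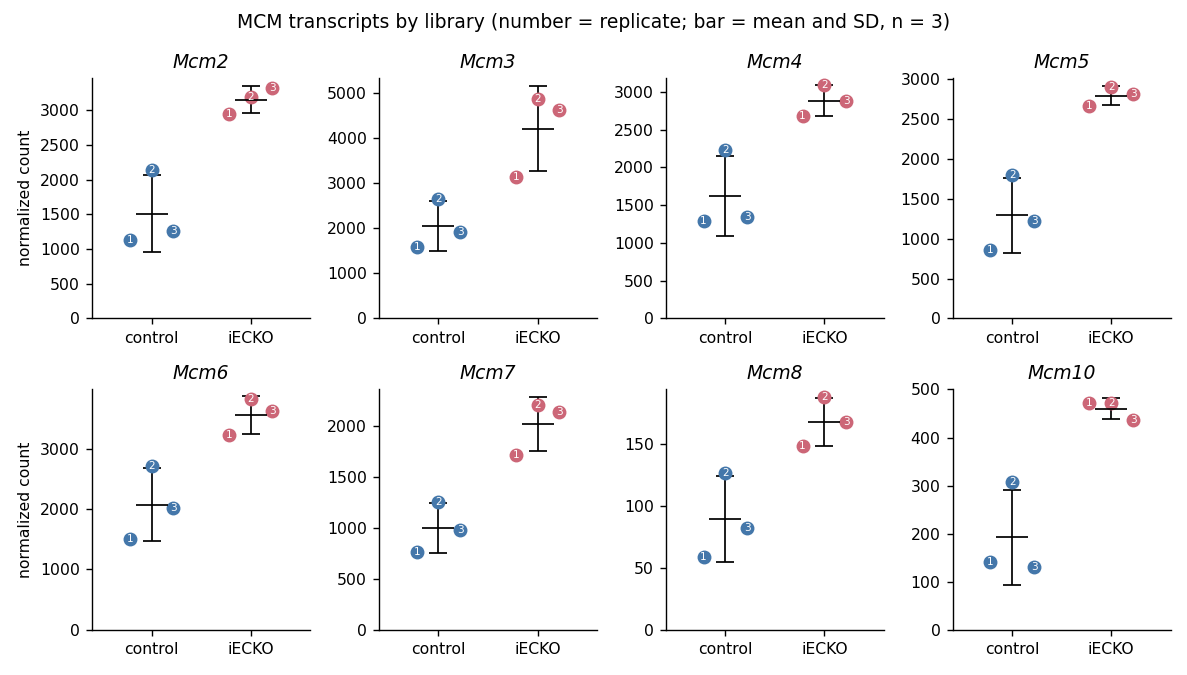
Normalized count of each of the 8 MCM genes (vertical axis, linear and from 0) in the 3 control and 3 *Atp6ap2* iECKO libraries; numbers in the points are replicate numbers, and bars give the mean and SD (n = 3). In each panel the *Atp6ap2* iECKO points lie above the control points, and control library 2 is the highest control.

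Promoter sequence is shown for the ring genes *Mcm3*, *Mcm5* and *Mcm6* as examples, beside *Mcm10*, which had the largest change. RefSeq promoters on GRCm38.p6, each running from 250 bases before the start site to 50 bases after it, were matched for 7 of the 8 genes. *Mcm7* had 2 of them, and *Mcm4* was not matched. They were searched on both strands for the E2F-type letters TTTCCCGC, TTTGGCGC, TTTCGCGC and TTTGCCGC, which can overlap each other on opposite strands, and for CCAAT, the letters bound by NF-Y. The 170 bases before the start site are given for 4 genes, 5′ to 3′ along the gene, with E2F-type and CCAAT letters in capitals.
Mcm6, chr1:128359706-128359875, minus strand: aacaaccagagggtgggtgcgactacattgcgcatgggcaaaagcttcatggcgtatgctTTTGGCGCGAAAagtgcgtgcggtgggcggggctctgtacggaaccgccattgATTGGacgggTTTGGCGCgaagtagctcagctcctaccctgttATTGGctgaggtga
Mcm5, chr8:75109339-75109508, plus strand: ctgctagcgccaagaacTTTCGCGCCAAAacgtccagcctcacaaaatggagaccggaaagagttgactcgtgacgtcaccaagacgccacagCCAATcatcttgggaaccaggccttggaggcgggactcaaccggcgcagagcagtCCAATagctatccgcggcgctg
Mcm3, chr1:20820313-20820482, minus strand: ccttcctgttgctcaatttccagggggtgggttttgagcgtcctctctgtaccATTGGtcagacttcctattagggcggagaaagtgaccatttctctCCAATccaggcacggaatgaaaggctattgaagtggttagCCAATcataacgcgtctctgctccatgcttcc
Mcm10, chr2:5012792-5012961, minus strand: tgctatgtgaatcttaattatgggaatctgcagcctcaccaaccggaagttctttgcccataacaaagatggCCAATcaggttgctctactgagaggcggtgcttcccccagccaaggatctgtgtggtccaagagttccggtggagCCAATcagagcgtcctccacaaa

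In *Mcm6*, the first run of capitals holds overlapping E2F-type matches that begin at positions -110 and -106 from the start site, and a further match begins at -47. In *Mcm5*, overlapping matches begin at -153 and -149. *Mcm3* had its E2F-type matches after the start site, at 20 and 39, outside the bases printed. *Mcm7* had matches at -165 and 17 in the first of its promoters, and *Mcm8* had a match at 40. *Mcm10* and *Mcm2* had none of these letters in the 300 bases. E2F-type letters were thus in 5 of the 8 promoters, against 2.26% of all 32851 promoters of the same length and 3.68% of the promoters of tested genes. Of the 24 promoters matched for genes that load or activate the helicase, 8 (33.33%) held E2F-type letters, so these letters were not particular to the MCM genes. CCAAT was in 8 of 8, against 37.41% of all promoters and 41.67% of those of the loading and activation genes. TTTGAA, the letters of the cell cycle homology region, were in the promoter of *Mcm2* alone among the 7 genes searched, and CACGTG, the E-box, in that of *Mcm8* alone, against 17.89% and 7.15% of all promoters. These are exact matches of letters and not measured binding, and a relation between the letters and the changes was not tested.

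Among the subunits of the ring, *Mcm2* (chr6:88883474-88898780, minus strand) encodes the subunit that also binds histones at the fork. It was at 1123, 2142 and 1267 normalized counts in control libraries 1, 2 and 3 and at 2943, 3195 and 3322 in *Atp6ap2* iECKO libraries 1, 2 and 3, with means of 1511 ± 551 and 3153 ± 193 (SD, n = 3). The groups did not overlap, and the fitted fold was 2.17 (95% interval 1.54 to 3.07, adjusted *P* = 0.0239). *Mcm5* (chr8:75109569-75128439, plus strand) encodes the neighbour of MCM2 in the ring, where the gap through which DNA enters lies. Its values were 857, 1796 and 1227 in control libraries and 2662, 2897 and 2818 in *Atp6ap2* iECKO libraries. The lowest *Atp6ap2* iECKO value was 1.48 times the highest control value, the widest gap of the 8 genes, and *Mcm5* rose 2.26-fold in the fit (1.56 to 3.26, adjusted *P* = 0.025). *Mcm3* (chr1:20802968-20820312, minus strand) encodes the partner of MCM5 in the ring. It was at 1582, 2655 and 1929 in control libraries and at 3135, 4886 and 4628 in *Atp6ap2* iECKO libraries, where library 1 stood well below the other two. The rise was 2.06-fold (1.45 to 2.93, adjusted *P* = 0.03), and *Mcm3* was the MCM gene with the widest spread among *Atp6ap2* iECKO libraries, with a coefficient of variation of 22.4%.

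MCM4, MCM6 and MCM7 form the subcomplex that showed helicase activity by itself when the ring was first studied. *Mcm7* (chr5:138164583-138172422, minus strand) was at 766, 1259 and 978 normalized counts in control libraries and at 1719, 2213 and 2139 in *Atp6ap2* iECKO libraries, with means of 1001 ± 248 and 2024 ± 267. It had the smallest adjusted *P* value of the family, 0.0182, at a fold of 2.05 (1.53 to 2.75). *Mcm4* (chr16:15623897-15637400, minus strand) was at 1288, 2233 and 1347 in control libraries and at 2683, 3084 and 2882 in *Atp6ap2* iECKO libraries. Its rise was 1.83-fold (1.34 to 2.51, adjusted *P* = 0.0366). *Mcm6* (chr1:128331590-128359664, minus strand) was at 1505, 2709 and 2009 in control libraries and at 3220.0, 3827 and 3624 in *Atp6ap2* iECKO libraries. It rose 1.76-fold (1.29 to 2.39, adjusted *P* = 0.0416), the smallest rise of the family, and its highest control value, in library 2, was below the lowest *Atp6ap2* iECKO value by a factor of 1.19. The intervals of the 6 subunits overlap each other, and differences between their folds were not tested.

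*Mcm10* (chr2:4989714-5012791, minus strand), which encodes the activation factor outside the ring, was at 141, 306 and 130.0 normalized counts in control libraries and at 472, 472 and 436 in *Atp6ap2* iECKO libraries. Control values spread most here, with a coefficient of variation of 51.3%, against 4.55% in *Atp6ap2* iECKO libraries. The fitted fold of 2.58 was the largest of the family, with the widest interval (1.58 to 4.20, adjusted *P* = 0.0356). *Mcm8* (chr2:132816141-132844197, plus strand), the repair helicase, was the least abundant, at 59.0, 127 and 81.8 in control libraries and at 148, 187 and 167 in *Atp6ap2* iECKO libraries. The groups did not overlap, but the adjusted *P* value was 0.0861 at a fold of 1.95 (1.22 to 3.12), so *Mcm8* did not pass the threshold. *Mcm9*, which encodes its partner, was at 383, 371 and 312 in control libraries and at 414, 430.3 and 455 in *Atp6ap2* iECKO libraries, without overlap but with a log2 fold change of only 0.29 (SE 0.13, adjusted *P* = 0.229).

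The 8 genes ordered the libraries in nearly the same way. Control library 2 was the highest control for 8 of 8 genes, and control library 1 the lowest for 7, *Mcm10* being lowest in control library 3. *Atp6ap2* iECKO library 1 was the lowest of its group for 7 genes (library 3 for *Mcm10*), and library 2 the highest for 7 (library 3 for *Mcm2*). The mean log2 deviation of *Mcm2* to *Mcm7* from the control mean was -0.38, 0.47 and -0.08 in control libraries 1, 2 and 3, so that control libraries 1 and 2 lay further apart than any pair of *Atp6ap2* iECKO libraries, whose deviations from their own mean were -0.17, 0.11 and 0.06. Coefficients of variation were between 24.7% and 51.3% in control libraries and between 4.29% and 22.4% in *Atp6ap2* iECKO libraries. *Atp6ap2* iECKO library 1, with the highest residual *Atp6ap2* of its group, had the lowest *Mcm2* to *Mcm7* sum of that group, 16361 normalized counts against 20102 and 19412, and with 3 libraries this relation was not tested.

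Leaving out any of several libraries ended the calls without changing the direction. Without control library 3, *Atp6ap2* iECKO library 2 or *Atp6ap2* iECKO library 3, 0 of the 8 genes passed in limma, although 8 of 8 had an unadjusted *P* value below 0.05 each time. Genes called higher among all 14456 tested fell from 474 to 63, 33 and 28 in these fits, so the loss was not particular to the MCM genes. Without control library 1, 3 genes passed (*Mcm2*, *Mcm5* and *Mcm7*), without *Atp6ap2* iECKO library 1, 4 passed, and without control library 2, 8 passed. In that order, 273, 367 and 461 of all genes tested were called higher. The log2 fold change stayed between 0.60 (*Mcm6* without control library 1) and 1.76 (*Mcm10* without control library 2). Within the 4 libraries of high *Xist*, the log2 fold changes were between 0.71 and 1.14 and 0 of 8 genes passed, with 7 of 8 at an unadjusted *P* value below 0.05 and only 1 gene called in the whole table. Within the pair of libraries of low *Xist*, control library 3 and *Atp6ap2* iECKO library 2, the log2 ratios were between 0.93 and 1.85 in favour of *Atp6ap2* iECKO, without replicates. With *Xist* as a term in the fit, 5 of the 8 genes passed, beside 248 of all genes tested called higher.

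**Figure D2:**
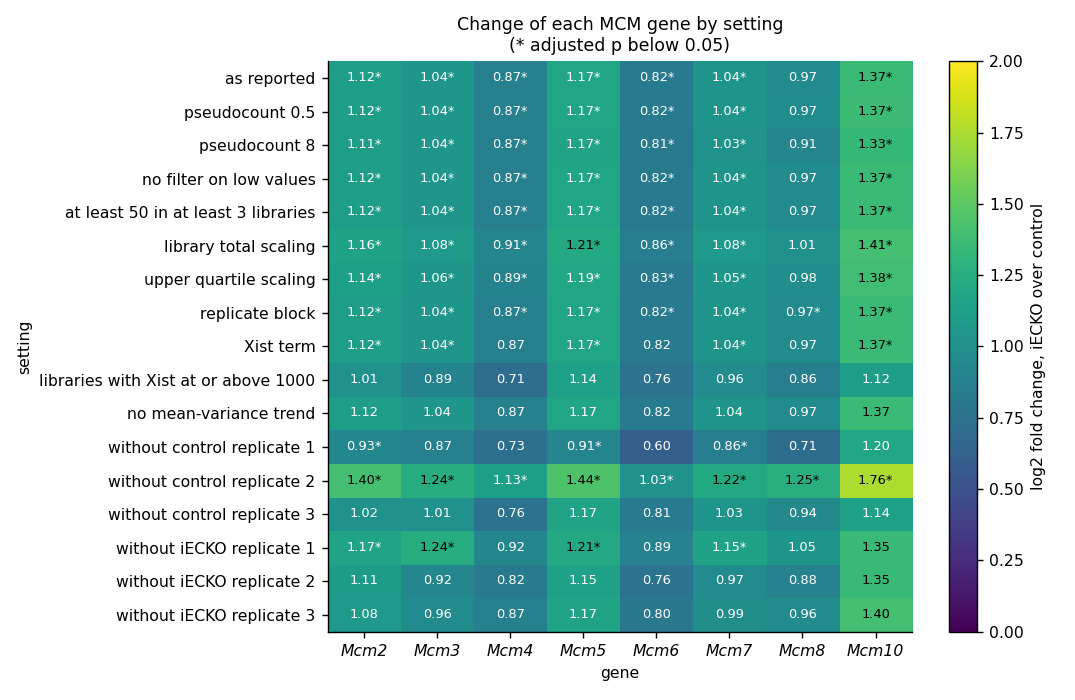
Log2 fold change (*Atp6ap2* iECKO over control, colour and number in each cell) of the 8 MCM genes (columns) under each way of analysing the data (rows); an asterisk marks an adjusted *P* value below 0.05. Each cell is above 0, while asterisks are absent when control library 3, *Atp6ap2* iECKO library 2 or 3, or the mean-variance trend is left out, and in the libraries with *Xist* at or above 1000.

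Since the ring holds each subunit in equal number, the levels were also compared per kilobase of transcript. The length of each gene was that of its longest GENCODE transcript with a RefSeq mRNA. The annotation behind the counts is not given, so the ranking of subunits on this scale depends on that choice. On this scale the most abundant subunit transcript was *Mcm3*, with 24.6% ± 0.88 of the summed level of the 6 in control and 25.3% ± 3.08 in *Atp6ap2* iECKO libraries (SD, n = 3). The least abundant was *Mcm7* (12.3% ± 0.79 and 12.5% ± 0.27), although in control library 1 *Mcm5* was lower still, at 12.2% against 12.5%. Within a library the highest subunit was between 1.78 and 2.16 times the lowest. The share of *Mcm6* was 16.7%, 16.8% and 18.1% in control libraries 1, 2 and 3 and 15.5%, 14.9% and 14.6% in *Atp6ap2* iECKO libraries 1, 2 and 3, without overlap (exact permutation *P* = 0.1, the smallest possible). The share of *Mcm5* was 12.2%, 14.3% and 14.3% in control libraries and 16.5%, 14.5% and 14.6% in *Atp6ap2* iECKO libraries. It was also without overlap, by a narrow gap (exact permutation *P* = 0.1), and the other 4 subunits overlapped. The shares of a library have a fixed sum, so they do not vary independently, and any full separation gives this *P* value. The summed level per kilobase was 2072, 3712 and 2542 in control libraries and 4762, 5902 and 5703 in *Atp6ap2* iECKO libraries.

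**Figure D3:**
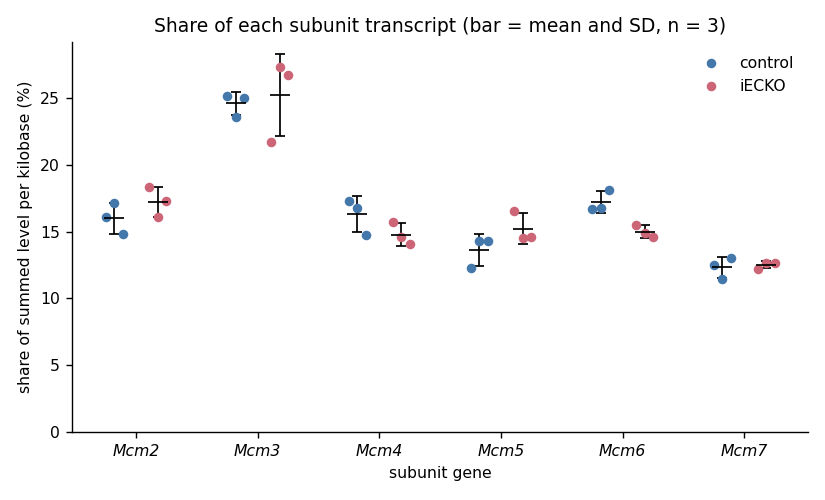
Share of each MCM2 to MCM7 subunit transcript in the summed level per kilobase of the 6 (percent, vertical axis from 0) in control and *Atp6ap2* iECKO libraries, with the mean and SD (n = 3). *Mcm3* is near 25% in both groups, and *Mcm5* and *Mcm6* are the subunits whose groups do not overlap.

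Of 29 genes listed for loading and activating the helicase, 28 were matched by symbol and tested, and 12 rose and 0 fell at an adjusted *P* value below 0.05 (1 gene was lower at an unadjusted *P* value below 0.05). Their median log2 fold change was 0.74, and 20 of 28 were higher without overlap. Over all genes tested, 3.28% were called higher, and 14.7% were higher without overlap. Among loading factors, *Cdt1*, which brings the ring to ORC, was at 417, 590.5 and 477 normalized counts in control libraries and at 949, 1047 and 1077 in *Atp6ap2* iECKO libraries, a log2 fold change of 1.06 (SE 0.14, adjusted *P* = 0.0103). Its inhibitor geminin, encoded by *Gmnn*, rose by a log2 fold change of 0.93 (adjusted *P* = 0.0283). *Orc1*, the ORC subunit whose level follows the cell cycle, rose by 1.35 (adjusted *P* = 0.0454), whereas *Orc2* to *Orc6* were between 0.04 and 0.48 and did not pass. *Cdc6*, the other loader, was at 192, 536 and 228 in control libraries and at 561, 843 and 772 in *Atp6ap2* iECKO libraries, without overlap, but with an adjusted *P* value of 0.0653.

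Of the activating kinase, both *Cdc7* (log2 fold change 1.06, adjusted *P* = 0.0389) and its partner *Dbf4* (log2 fold change 0.67, adjusted *P* = 0.0191) rose. *Cdc45*, which binds the ring to make the active helicase, was at 123, 304 and 173 normalized counts in control libraries and at 497, 508 and 475 in *Atp6ap2* iECKO libraries, and its log2 fold change of 1.40 (SE 0.30, adjusted *P* = 0.0301) was the highest of the list. Of the 4 GINS subunits, *Gins2* rose (log2 fold change 1.14, adjusted *P* = 0.0304), while *Gins1* (log2 fold change 1.10, adjusted *P* = 0.0737), *Gins3* (log2 fold change 0.74) and *Gins4* (log2 fold change 0.18) did not pass. Among factors that place CDC45 and GINS on the ring, *Ticrr*, *Mtbp*, *Topbp1* and *Recql4* rose. Their log2 fold changes were 1.22, 0.75, 0.64 and 0.88 (adjusted *P* = 0.0405, 0.03, 0.0212 and 0.042). The checkpoint adaptor *Clspn* also rose (log2 fold change 1.22, adjusted *P* = 0.0326). *Donson*, *Rif1* and *Wdhd1* of the list did not pass (log2 fold changes 0.60, 0.43 and 1.13, adjusted *P* = 0.0589, 0.0618 and 0.102). *Mcmbp*, whose product binds MCM subunits outside chromatin, had a log2 fold change of 0.07 (adjusted *P* = 0.595). *Timeless*, of the fork protection complex, was the single gene of the list with a lower value, at 3421, 4521 and 3854 in control libraries and at 3059, 3062 and 2828 in *Atp6ap2* iECKO libraries (log2 fold change -0.39, adjusted *P* = 0.0689), while its partner *Tipin* was higher without passing (log2 fold change 0.81).

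**Figure D4:**
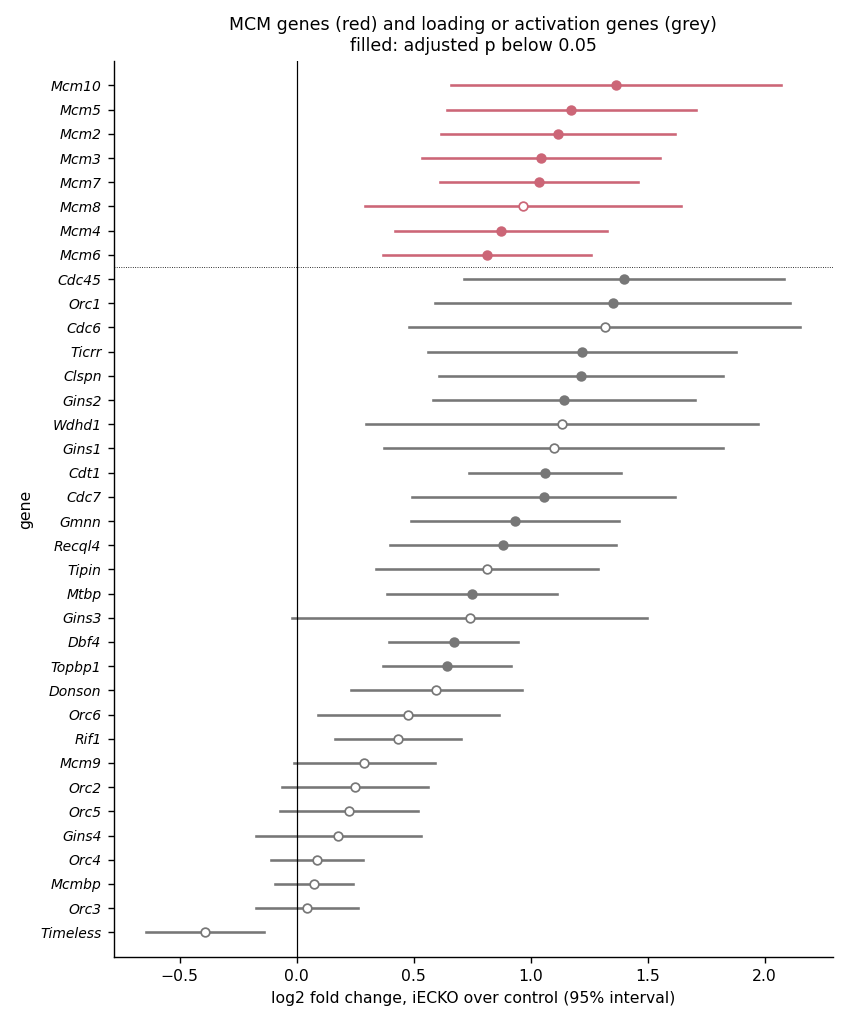
Log2 fold change, *Atp6ap2* iECKO over control, with its 95% interval from limma, of the 8 MCM genes (red) and of the 28 genes for loading or activating the helicase (grey); filled points have an adjusted *P* value below 0.05. *Mcm8* is the open red point, and *Timeless* is the grey point below 0.

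The MCM genes moved with the wider proliferation lists. For comparison, 3.28% of all genes tested were called higher and 4.97% lower. Of 33 S phase genes, 19 rose and 0 fell (median log2 fold change 0.90, with the smallest *P* values for *Wdr76*, *Fen1* and *Ccne2*), and of 52 G2 and M phase genes, 22 rose and 0 fell (median 0.72, with the smallest *P* values for *Rangap1*, *Cdk1* and *Birc5*), with 0 genes of either list lower at an unadjusted limma *P* value below 0.05. Of 15 E2F and pocket protein genes, 6 rose and 0 fell, with 1 lower at an unadjusted *P* value below 0.05. Among them, *Mybl2* rose by a log2 fold change of 1.21 (adjusted *P* = 0.0198), *E2f2* by 0.78 and *E2f1* by 1.10 (adjusted *P* = 0.0326). These calls, like those of the MCM genes, were mostly lost when any of several libraries was left out. Without control library 3, *Atp6ap2* iECKO library 2 and *Atp6ap2* iECKO library 3 in turn, the S phase median log2 fold change was 0.83, 0.87 and 0.90. Calls over all genes fell from 1193 to 268, 248 and 204 in these fits. Without control library 3, *Atp6ap2* iECKO library 2 and *Atp6ap2* iECKO library 3 in turn, S phase calls numbered 1, 1 and 0, G2 and M phase calls 0, 0 and 1, and E2F and pocket protein calls 0 each time, while at an unadjusted limma *P* value below 0.05 at least 27, 35 and 10 genes of the lists were higher. Without control library 1 the calls of the 3 lists were 9, 4 and 2. Without *Atp6ap2* iECKO library 1, G2 and M phase calls were 5 and E2F and pocket protein calls 2, and without control library 2, G2 and M phase calls were 41. In the 4 libraries of high *Xist*, 0 genes of the 3 lists were called, with 22, 22 and 7 higher at an unadjusted limma *P* value below 0.05. The median log2 ratio of *Mcm2* to *Mcm7* to the control mean was -0.36, 0.47 and -0.03 in control libraries and 0.79, 1.16 and 1.16 in *Atp6ap2* iECKO libraries. That of the G2 and M phase list was -0.23, 0.43 and -0.19 in control libraries and 0.79, 0.93 and 0.58 in *Atp6ap2* iECKO libraries, so both were highest among controls in library 2 and highest of all in *Atp6ap2* iECKO library 2.

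Markers of other cell types also differed between the groups. Their counts stand beside 3.28% of all genes tested called higher and 4.97% called lower. Of 18 tested fibroblast markers, 13 fell and 0 rose (median log2 fold change -1.48, with 1 higher at an unadjusted limma *P* value below 0.05), and their summed level was between 244824 and 306231 normalized counts in control and between 125736 and 181688 in *Atp6ap2* iECKO libraries. Of 15 mural and smooth muscle markers, 9 fell (median -1.52), with sums between 14524 and 22067 in control and between 5969 and 7612 in *Atp6ap2* iECKO libraries. Without control library 3, *Atp6ap2* iECKO library 2 or *Atp6ap2* iECKO library 3, 7 fibroblast and 5 mural markers were called lower each time. Of all genes tested, 205, 215 and 176 were called lower in these fits. In the 4 libraries of high *Xist*, 0 of either list were called, with 13 fibroblast and 14 mural markers lower at an unadjusted limma *P* value below 0.05. Of 15 tested leukocyte markers, 0 passed in either direction, with 0 at an unadjusted limma *P* value below 0.05, and their sums were between 6628 and 12038 in control and between 5551 and 15965 in *Atp6ap2* iECKO libraries. *Atp6ap2* iECKO library 2, highest for 7 of the 8 MCM genes, had the lowest leukocyte sum of all 6 libraries, 5551. Of 15 epithelial markers, 1 rose and 0 fell, and their sum was 82324 in control library 3 against 32219 to 46609 in the other 5. No listed marker of these cell types was at 0 in all libraries. The part of the fibroblast and mural difference in the MCM result was not tested.

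**Figure D5:**
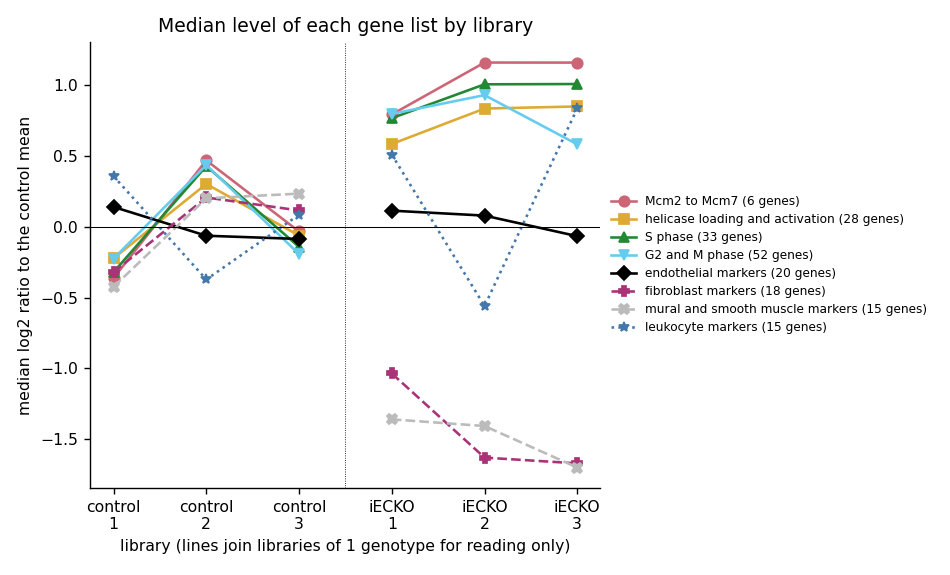
Median log2 ratio to the control mean (vertical axis) of *Mcm2* to *Mcm7*, of the pathway and cell cycle lists and of cell type markers, in each library (horizontal axis); lines join libraries of the same genotype for reading only. MCM, S phase and G2 and M phase medians lie above 0.5 in the *Atp6ap2* iECKO libraries, fibroblast and mural markers lie below -1, and leukocyte markers go up and down within both genotypes.

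The genes next to the MCM genes were examined for change at the same sites. Of the 16 nearest tested neighbours, 2 were called, *Optn* beside *Mcm10* higher (log2 fold change 0.56, adjusted *P* = 0.0412) and *Podxl2* beside *Mcm2* lower (log2 fold change -1.12, adjusted *P* = 0.0167), and the median was 0.18. Over all genes tested, 3.28% were called higher and 4.97% lower, so so small a count is not read as a result about these sites. *Prkdc*, which starts 466 bases from the start of *Mcm4* on the other strand, was at 938, 1031 and 843 normalized counts in control libraries and at 974, 942 and 1056 in *Atp6ap2* iECKO libraries (log2 fold change 0.08, SE 0.11, adjusted *P* = 0.69). The groups of *Prkdc* overlapped where those of *Mcm4* did not. *Trmt6*, which starts 86 bases from *Mcm8* on the other strand, had a log2 fold change of 0.56 (adjusted *P* = 0.229). *Mcm7* overlaps *Ap4m1* (log2 fold change 0.11, adjusted *P* = 0.65) and *Cops6* (log2 fold change 0.11, adjusted *P* = 0.492) on the other strand. The library kit does not keep the strand, so reads in the overlap cannot be assigned to a gene by strand. The microRNA genes *Mir25*, *Mir93* and *Mir106b* inside *Mcm7* were listed at 0 in all 6 libraries. As these are mRNA libraries, the values do not measure mature microRNAs.

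Among tested genes with a mean of at least 100 normalized counts, those whose log2 values over the 6 libraries were closest to the mean of *Mcm2* to *Mcm7* included *Dscc1* (Pearson *r* = 0.9993), *Uhrf1* (0.9993), *Dtl* (0.9988) and *Haus6* (0.9985). The 8 MCM genes had *r* between 0.9613 (*Mcm10*) and 0.9939 (*Mcm7*), with *Mcm2* to *Mcm7* themselves part of the mean. The genes closest to it in deviations from the genotype means included *Ppp1r12b* (Pearson *r* = 0.9983), *Tbl2* (0.9979), *Fbf1* (0.9977) and *Eif2a* (0.9974), and these 4 did not pass the test between genotypes. In deviations, *Mcm8* (0.9905) and *Mcm6* (0.9869) followed the mean most closely of the 8 and *Mcm10* (0.8368) the least. These are descriptions over 6 points that share library and scaling, chosen as the highest among many genes.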

How the data were processed

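RNA of iLECs was sequenced from 6 samples, 3 per genotype, as 1 TruSeq mRNA library each. Per the labels and the methods of the study, the authors aligned reads to mm10 and quantified genes with BaseSpace tools, and the gene annotation is not given in the sources used here. The authors deposited 1 table of normalized signal for 24972 symbols in 6 libraries. The labels call the values raw counts, but the numbers have decimals, and each library has the same median ratio to the geometric mean, 1.0036, so no count model was used and read depth is unknown. Counting intervals are therefore left out, and precision rests on the spread of 3 libraries a group. Nothing states whether a library is 1 animal or a pool, so *P* values measure the spread between these samples.

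Values were analysed as log2(value + 1) in R 4.3.3 with limma 3.58.1, a mean-variance trend and no covariate, over 14456 genes at 10 or more in at least 3 libraries. A fold change on this scale understates that of low genes. Benjamini-Hochberg adjustment ran over all genes tested, and the threshold was 0.05. Of all genes tested, 1193 were called and 3453 had an unadjusted *P* value below 0.05. The procedure was tested on simulated data. Single values were compared by an exact two-sided permutation test. Coordinates, neighbours and transcript lengths are from GENCODE for GRCm38, to which 98.1% of symbols matched, and promoters are from RefSeq (GRCm38.p6). The genes and lists were chosen with earlier results of these data known. Named genes were the 8 MCM genes, any gene of the loading and activation list, the 3 smallest *P* values in a direction in each cell cycle list, nearest or overlapping neighbours, and the 5 closest profiles by each measure. An item withheld from the text is not reported here. Alternatives were pseudocounts, filters, scalings, a replicate block, *Xist*, the trend, thresholds and each library left out.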

Additional observations from a re-analysis of the deposited data

How the results depend on the processing

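All 8 MCM genes kept a higher level in *Atp6ap2* iECKO in each of the 16 alternative fits, and *Mcm8* was the gene that did not pass in the fit reported. With 7 MCM genes, 12 loading and activation genes and 1193 genes of the whole table called as reported, the corresponding counts were 0, 1 and 304 without the mean-variance trend, 0, 0 and 90 at an adjusted *P* value below 0.01, and 0, 0 and 1 in the 4 libraries with *Xist* at or above 1000. At an unadjusted limma *P* value below 0.05 the MCM counts were 8, 8 and 7 of 8. With *Xist* as a term, 767 genes were called, and at an adjusted *P* value below 0.1, 1987. With each library left out in turn, counts were between 0 and 8 for MCM genes, 1 and 17 for loading and activation genes, and 204 and 989 for all genes. The fewest loading and activation genes, 1 each time, were called without control library 3 or *Atp6ap2* iECKO library 2, and 2 without *Atp6ap2* iECKO library 3, against 6 without library 1 of either group. For all genes these 3 libraries gave 268, 248 and 204. Calls of all genes were 474 higher and 719 lower as reported, 573 and 599 after scaling to library totals, 595 and 687 after upper quartile scaling, and 461 and 362 without control library 2, and the median of all genes stayed within 0.045 of 0. Other pseudocounts, filters and scalings left the MCM count at 7. Without the trend, calls were 1 for S phase, 0 for G2 and M phase (41 higher at an unadjusted limma *P* value below 0.05), 0 for E2F and pocket proteins (10 higher), 7 for fibroblast and 6 for mural markers, and with *Xist* as a term, 11, 10, 3, 11 and 10. The cause of these changes was not tested.

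Replicate numbers shared by the groups correlated in their deviations by 0.252, 0.114 and 0.078, so they do not pair the samples by a minimum of 0.1 in every pair, and control library 3 correlated most with *Atp6ap2* iECKO library 2. With a replicate block, 8 MCM genes, 17 loading and activation genes and 1508 genes in all were called. Unknown read depth limits what can be said of *Mcm8*, at 59.0 to 187 normalized counts.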
